A study of Mus musculus with 16 samples.

Results

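Wild-type (WT) osteoclast cultures make up 4 of the 16 sequenced cultures, and their transcriptome is described here by ranking genes on their mean TPM over the cultures labelled WT 1 to WT 4. TPM (transcript abundance in a library total of 1000000) is a level scaled to gene length and library total, so that levels of different genes can be compared. WT was 1 of 4 groups of 4 cultures, and the others carried a knockout of Ptprc (Ptprc KO), the FLT3 internal tandem duplication (FLT3 ITD), or both (FLT3 ITD Ptprc KO). Ptprc encodes the phosphatase CD45, and FLT3 ITD is an active form of a receptor tyrosine kinase found in leukaemia. All 4 groups came from CD11b+ bone marrow cells of C57BL/6J mice kept for 3 days in M-CSF at 50 ng/ml and then given RANKL at 20 ng/ml. Collection of RNA followed the first sight of mature osteoclasts, on any of day 3 to day 5, and no source used here states which day applies to which culture. The labels state neither sex nor separate mice for the replicates, so the p-values below measure the spread between these cultures.

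Osteoclasts are large cells with several nuclei that form by fusion of monocyte and macrophage precursors. M-CSF acts through its receptor Csf1r to keep the precursors alive, and RANKL acts through RANK (Tnfrsf11a) to switch on NF-kB, Fos and the master factor Nfatc1. The mature cell seals off a patch of bone, pumps protons into it and secretes proteases that digest the exposed collagen. Such a culture is a mixture of fused osteoclasts and unfused precursors, and in bulk RNA fewer cells of a type and less RNA per cell cannot be told apart.

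The WT libraries held between 26678727 and 35773313 counts, and the TPM of each library summed to 1000000. Of the 21936 genes in the table, 10979 had a mean of at least 1 TPM and are called detected here, and 10483 reached that level in all 4 cultures. At the other end, 6567 genes were listed at 0 in all 4. Levels below come from the deposited TPM unless CPM, counts scaled to a library total of 1000000, is named. Among the mutant libraries, FLT3 ITD replicates 1 and 3 were close to each other, with a chi-square of 2.76 per gene, where the 6 pairs of WT cultures had between 39.5 and 242. FLT3 ITD replicate 2 carried a trend with gene length, with a Spearman correlation of -0.46 across genes, against 0.109 to 0.167 in the WT libraries. FLT3 ITD replicate 4 had -0.18, and the other mutant libraries had 0.0352 to 0.181.

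All 10 listed osteoclast markers were detected in WT, 9 of them at 100 TPM or more, and the 3 best known stood among the 8 most abundant transcripts of the whole table. Ctsk, the collagen-degrading cysteine protease cathepsin K, had 18026, 22302, 17518 and 19109 TPM in WT 1 to WT 4 and ranked 2 (ENSMUSG00000028111, GRCm38.p6 chromosome 3, 95499256 to 95509362). Mmp9, a gelatinase, had 14613, 18369, 13176 and 18688 TPM and ranked 6 (ENSMUSG00000017737, chromosome 2, 164940780 to 164955850). Acp5, the tartrate-resistant acid phosphatase used to stain osteoclasts, had 11068, 13121, 8925 and 10254 TPM and ranked 8 (ENSMUSG00000001348, chromosome 9, 22126727 to 22135711). WT 3 was the lowest culture for each of these 3 genes and for 8 of the 10 markers, and the highest culture had 1.27 to 1.47 times its level. As a baseline for such counts, WT 3 was the lowest culture for 48.7% and WT 2 for 22.8% of all 8072 genes with a mean of at least 10 TPM, and the highest culture was WT 2 for 28.9%, WT 3 for 25.5% and WT 4 for 11.7% of them. Counts within lists, here and below, take members with a mean of at least 1 TPM. Of all 10979 genes at that level, WT 3 was lowest for 5179 and WT 2 for 2687. The highest culture was WT 2 for 3012, WT 3 for 2759 and WT 4 for 1590. Together the 3 genes held 4.37%, 5.38%, 3.96% and 4.81% of TPM in WT 1 to WT 4.

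The top of the ranking mixed mitochondrial, bone-resorbing, lysosomal and iron-storage transcripts. The 10 most abundant genes held 15.4% of TPM, the 100 most abundant 34.5%, and 337 genes held 50% of it. The single most abundant transcript was COX1, the mitochondrially encoded subunit of cytochrome c oxidase, at 24718 ± 3142 TPM (SD, n = 4), followed after Ctsk by ND1 at 17338 ± 2578 and CYTB at 17150 ± 2499 TPM. Of the 30 most abundant genes 6 are encoded in mitochondria, namely COX1, ND1, CYTB, ND2, ND5 and ND4, and the 13 genes of that genome held between 6.64% of TPM in WT 3 and 9.51% in WT 2. Lyz2, the lysozyme of myeloid cells, ranked 5 on its mean but was the least even of the 30, with 12001, 5962, 33538 and 16873 TPM. Its rank was 1 in WT 3 and 13 in WT 2. Ftl1 and Fth1, the light and heavy chains of the iron store ferritin, had 14679 ± 3119 and 4346 ± 2057 TPM, both highest in WT 3.

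**Figure D1:**
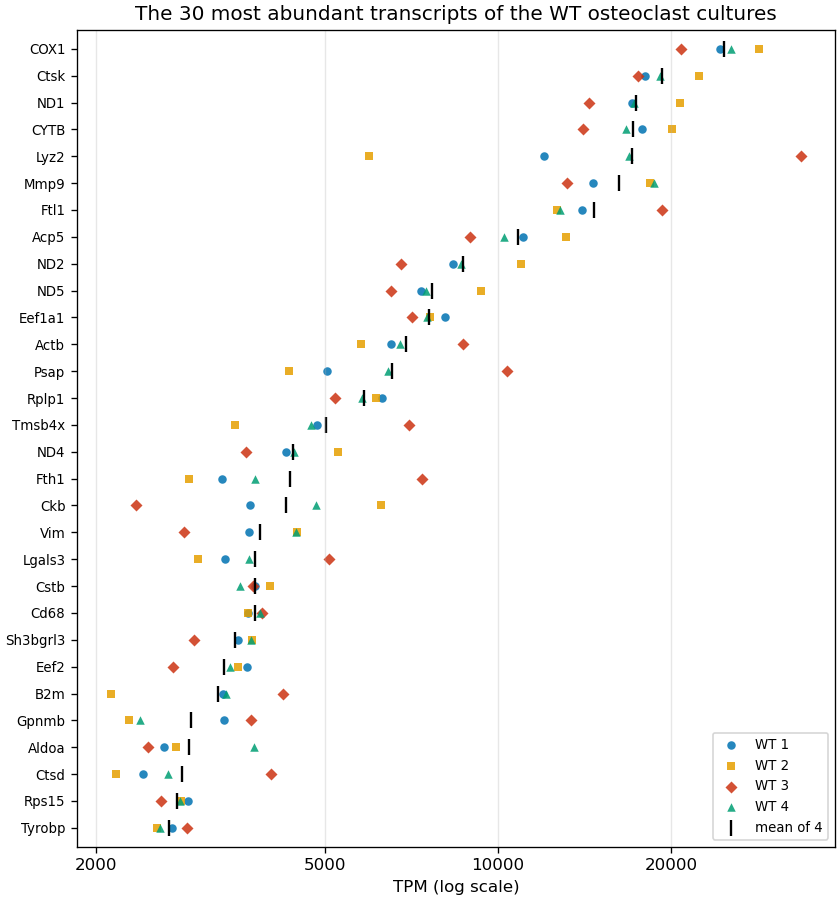
Levels of the 30 transcripts with the highest mean in WT, one row per gene, with TPM on a log axis, one symbol per culture and a bar at the mean of the 4. Most rows span less than 2-fold, while Lyz2 spreads between 5962 TPM in WT 2 and 33538 TPM in WT 3.

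The remaining leaders were housekeeping and cytoskeletal genes together with lysosomal ones. Eef1a1 and Eef2, elongation factors of translation, had 7573 ± 405 and 3336 ± 418 TPM, and the ribosomal proteins Rplp1 and Rps15 had 5854 ± 480 and 2772 ± 127 TPM. Actb (actin), Tmsb4x (an actin-binding peptide), Vim (vimentin) and the small protein gene Sh3bgrl3 had means between 3488 and 6931 TPM. Lgals3 (galectin-3), B2m (the light chain of MHC class I), Aldoa (a glycolytic aldolase) and Tyrobp (the adaptor DAP12) closed the list of 30 with means between 2685 and 3785 TPM. Of the 100 most abundant genes, 20 encode ribosomal proteins, 11 belong to the lysosome list, 10 to the energy list, 8 to the cytoskeleton list and 5 to the V-ATPase list. The membership was shared by the cultures: 77 of these 100 were among the 100 most abundant in all 4, and 7 genes were among the 10 most abundant in all 4.

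Genes of acid secretion and matrix digestion were detected in full, with 19 of 19 listed members at 1 TPM or more and 15 at 100 TPM or more. Their summed level was 51602, 61969, 49120 and 56792 TPM in WT 1 to WT 4. WT 3 had the lowest sum and WT 2 the highest, a 1.26-fold range. Tcirg1, the a3 subunit that anchors the proton pump in the resorbing membrane, had 1463, 1574, 1009 and 1266 TPM. Clcn7, the chloride-proton exchanger that balances the pump's charge, had 627, 737, 343 and 621 TPM, and Car2, the carbonic anhydrase that supplies protons, had 446, 627, 400 and 759 TPM. For these 3 genes too WT 3 was lowest. Slc37a2, a sugar-phosphate transporter, and Rab7, a GTPase of late endosomes, were more even, at 850 ± 32.9 and 788 ± 47.0 TPM, and Ctsb, cathepsin B, went the other way with 3936 TPM in WT 3 against 1944 to 2615 TPM in the other cultures.

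The V-ATPase, the proton pump itself, was represented by 19 detected genes of 25, and the subunit isoforms differed widely in level. Atp6v1b2 had 1717 ± 183 TPM, whereas its alternative Atp6v1b1 was listed at 0 in all 4 cultures. Atp6v0d2, an isoform that promotes osteoclast fusion in mice, had 1585 ± 217 TPM, and Atp6v0d1, named here after its values were seen, had 473 TPM. Atp6v0a4, Atp6v1g3 and Atp6v1e2 were also listed at 0. Atp6v0b, Atp6v1a, Atp6v1g1 and the accessory subunits Atp6ap2 and Atp6ap1 had means between 715 and 1183 TPM. WT 2 was the highest culture for 16 of the 19 (28.9% of all 8072 genes) and WT 3 the lowest for 15 (48.7% of all), with sums of 13017, 14467, 10886 and 12928 TPM in WT 1 to WT 4.

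Lysosomal genes were detected at 49 of 50, with 34 at 100 TPM or more and sums of 51373, 52240, 64357 and 54388 TPM in WT 1 to WT 4, highest in WT 3. Psap, the precursor of the saposins that help break down sphingolipids, had 5034, 4327, 10365 and 6427 TPM. Ctsd (cathepsin D, which overlaps a predicted gene on its strand) had 2416, 2166, 4025 and 2675 TPM and Ctss (cathepsin S, a protease of antigen-presenting cells) 1972, 1147, 3830 and 2146 TPM. All 3 were highest in WT 3 and lowest in WT 2. By contrast Cd68, a lysosomal membrane protein of macrophages and osteoclasts, was among the most even abundant transcripts at 3775 ± 116 TPM, and Ctsz and Hexa, a cathepsin and a subunit of hexosaminidase, had 2417 ± 49.1 and 1506 ± 74.0 TPM. Gpnmb, a glycoprotein of osteoclasts and macrophages, had 3339, 2284, 3720 and 2386 TPM. Ctsw, a cathepsin of killer lymphocytes, was listed at 0. Cstb and Cst3, inhibitors of cysteine cathepsins inside and outside the cell, were even at 3781 ± 187 and 2217 ± 141 TPM.

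Promoter windows of 4 of these genes are printed because they carry the letters of motifs read by factors of this lineage. The windows are the 250 bases before a RefSeq start in build GRCm38.p6, given 5′ to 3′ on the strand of the gene. Capitals mark GAGGAAG, a core bound by PU.1, in Ctsk, TCATGTG, the M-box bound by Mitf-type factors, in Acp5, and CACGTGAC, part of the CLEAR element bound by TFEB-type factors, in Ctsd and Lamp1, in either orientation.
Ctsk, chr3:95498960-95499209, plus strand: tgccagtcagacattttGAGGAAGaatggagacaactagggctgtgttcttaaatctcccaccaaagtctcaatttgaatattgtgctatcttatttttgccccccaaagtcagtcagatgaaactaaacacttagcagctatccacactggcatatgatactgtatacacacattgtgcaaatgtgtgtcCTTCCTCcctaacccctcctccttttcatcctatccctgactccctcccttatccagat
Acp5, the start farthest downstream of 3, chr9:22130599-22130848, minus strand: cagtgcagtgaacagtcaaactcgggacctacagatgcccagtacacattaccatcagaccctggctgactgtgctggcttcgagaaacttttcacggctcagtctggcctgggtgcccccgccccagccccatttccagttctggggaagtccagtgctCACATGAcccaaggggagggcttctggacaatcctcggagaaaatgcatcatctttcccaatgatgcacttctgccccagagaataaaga
Ctsd, chr7:142387828-142388077, minus strand: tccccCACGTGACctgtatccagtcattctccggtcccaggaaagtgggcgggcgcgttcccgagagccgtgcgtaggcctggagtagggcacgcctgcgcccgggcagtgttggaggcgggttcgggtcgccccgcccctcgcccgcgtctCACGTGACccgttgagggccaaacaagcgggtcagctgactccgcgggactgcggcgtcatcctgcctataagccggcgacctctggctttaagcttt
Lamp1, chr8:13158911-13159160, plus strand: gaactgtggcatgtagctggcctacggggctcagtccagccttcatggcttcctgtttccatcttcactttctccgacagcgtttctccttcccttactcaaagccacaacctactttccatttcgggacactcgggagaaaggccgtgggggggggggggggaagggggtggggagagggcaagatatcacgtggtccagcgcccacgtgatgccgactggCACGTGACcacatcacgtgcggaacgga
In all, 5 motifs were searched on both strands in windows of the same kind extended to 50 bases after the start: these 3, the AP-1 site TGANTCA and the TATA box TATAAA, none of which contains another, although matches of different motifs may share bases. CACGTGAC was in 9 of 47 windows (19.1%) of the 40 lysosome genes with a window, against 2.25% of all 32851 windows and 4.31% of the windows of genes detected in WT, and in 2 of 24 windows of the V-ATPase genes. TCATGTG was in 17.0% of the lysosome windows, against 3.77% of all windows and 2.17% of those of detected genes. In windows of 73 of the 100 most abundant nuclear genes, TATAAA was found in 20.0%, against 13.6% of all and 6.86% of detected genes. GAGGAAG was in 12.2%, against 13.6% and 13.7%, and TGANTCA in 8.89%, against 7.81% and 5.25%. Mean GC content was 55.7% in the lysosome windows, 58.8% in those of the abundant genes and 53.8% in all. These matches describe letters in a window and do not show a bound site.

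Genes of fusion and osteoclast identity were detected at 28 of 29 in the table, 21 of them at 100 TPM or more. Ckb, the brain-type creatine kinase that osteoclasts use to supply energy, was the most abundant after Acp5 and varied most among the leaders, with 3712, 6266, 2348 and 4816 TPM. Dcstamp and Ocstamp, membrane proteins needed for fusion, followed the same order of cultures: Dcstamp had 542, 1012, 465 and 785 TPM and Ocstamp had 218, 344, 216 and 320 TPM. For these 3 genes WT 2 was highest and WT 3 lowest. Cd9, a tetraspanin, was also highest in WT 2 but over a smaller range, with 562, 626, 563 and 566 TPM. Adam8, a membrane protease, and Cd44, a hyaluronan receptor, were highest in WT 3 at 683 and 438 TPM, against 408 to 471 and 312 to 351 TPM in the other cultures.

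Energy genes were detected at 54 of 55 and cytoskeletal genes at 53 of 53. Besides Ckb and Aldoa, the energy list was led by Pkm (pyruvate kinase), the ATP synthase subunits Atp5b and Atp5a1 and the cytochrome oxidase subunits Cox6b1 and Cox4i1, with means between 1280 and 1746 TPM. WT 3 was the lowest culture for 40 of the 54 energy genes, against 48.7% of all 8072 genes, and its sum of 26197 TPM lay below the 33132 to 39237 TPM of the other cultures. Cytoskeletal sums ranged only between 38926 TPM in WT 2 and 45340 TPM in WT 3, with Capg, Cfl1, Pfn1 and Arpc2, actin regulators, each within 1.25-fold between cultures.

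Among secreted products, Spp1 (osteopontin) had 2379 ± 332 TPM and the chemokine Ccl9, which attracts myeloid cells and acts in osteoclast formation in mice, 2240 ± 164 TPM. Its neighbour Ccl6 on chromosome 11 had 47.1, 24.5, 339 and 105 TPM, a 13.8-fold range that Ccl9, with a range of 1.18-fold, did not share. Factors through which osteoclasts act on bone-forming cells were led by Sema4d at 328 ± 61.4 TPM, Pdgfb at 257 ± 18.7 TPM and Tgfb1 at 180 ± 20.2 TPM. Iron genes besides ferritin included the haem-degrading enzyme Hmox1, with 454, 301, 1770 and 413 TPM, and the transferrin receptor Tfrc, with 406, 597, 455 and 542 TPM. WT 3 was far above the other cultures for Hmox1 and within their range for Tfrc.

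Receptors and integrins covered 426 genes of the table, of which 275 were detected and 68 reached 100 TPM. They took between 2.51% and 3.60% of TPM in a culture. Their spread was wider than that of other genes: the median SD of log2(TPM + 1) over the 4 cultures was 0.45 for detected receptors, 0.25 for detected transcription factors and 0.18 for all detected genes, as a description.

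Of the cytokine and growth factor receptors, 74 of 128 were detected, led by Csf1r, the M-CSF receptor, with 960, 732, 1121 and 862 TPM. Tnfrsf11a, the receptor RANK, had 143, 146, 108 and 127 TPM, and ranked 11 in this list. The level of Csf1r was thus lowest in WT 2 and that of Tnfrsf11a lowest in WT 3. Receptor chains for GM-CSF were lower than Csf1r, with Csf2ra at 297 ± 26.6 TPM, Csf2rb at 185 ± 10.7 TPM and Csf2rb2 at 183 ± 22.8 TPM; the last 2 genes are close copies whose reads may be split between them. Tgfbr1, a TGF-beta receptor, had 321 ± 86.9 TPM, and Igf2r, which carries lysosomal enzymes, had 272 ± 32.6 TPM. The TNF receptors differed in evenness: Tnfrsf1a had 176, 146, 167 and 164 TPM and Tnfrsf1b had 145, 71.5, 362 and 126 TPM. The interferon-gamma receptor chains Ifngr2 and Ifngr1 had 175 ± 6.26 and 126 ± 24.0 TPM, and Mst1r, a receptor kinase, had 162 ± 17.7 TPM.

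Immune receptors were the most abundant receptor class, with 65 of 74 detected and a summed level between 8079 TPM in WT 2 and 13359 TPM in WT 3. The adaptors Tyrobp and Fcer1g, which pass on the costimulation that osteoclasts need beside RANKL, had 2685 ± 148 and 996 ± 230 TPM. Oscar, a collagen-binding receptor, had 323, 319, 306 and 402 TPM. Sirpa, an inhibitory receptor that binds CD47 and has a part in fusion, had 1157 ± 122 TPM, and the inhibitory Pirb 241 ± 31.0 TPM. Among the less even members, the Fc receptor Fcgr3 had 129, 64.8, 500 and 257 TPM and the C-type lectin Clec4d had 260, 151, 733 and 255 TPM. WT 3 was the highest culture for 43 of the 65 and WT 2 the lowest for 51, against 25.5% and 22.8% of all 8072 genes.

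G-protein-coupled receptors were sparser, with 73 of 138 detected and 6 at 100 TPM or more. Ccr1, a chemokine receptor that binds Ccl9, led with 472, 511, 512 and 539 TPM. Gpr137b, a lysosomal membrane protein, had 450 ± 53.2 TPM. Adgre1, which encodes the macrophage antigen F4/80, had 382, 154, 897 and 364 TPM, and the complement receptors C5ar1 and C3ar1 had 114, 73.5, 428 and 214 TPM and 129, 73.5, 380 and 160 TPM. These 3 were highest in WT 3 and lowest in WT 2. Calcr, the calcitonin receptor of mature osteoclasts, had 81.9, 67.0, 67.7 and 65.6 TPM.

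Pattern, scavenger and guidance receptors were detected at 46 of 59. Nrp2 and Plxnd1, receptors for semaphorins and VEGF-type ligands, had 701 ± 109 and 617 ± 123 TPM, and Plxnb2 had 312 ± 50.0 TPM. Cd36, a fatty acid and lipoprotein receptor, had 266, 255, 1251 and 403 TPM, and Cd14, the co-receptor for bacterial lipopolysaccharide, had 73.0, 48.0, 400 and 128 TPM. Of the integrins, 17 of 27 were detected. Itgb2 and Itgb1, the common chains of leukocyte and matrix integrins, had 1062 ± 136 and 612 ± 36.2 TPM. Itgav and Itgb3, which pair to the vitronectin receptor of the sealing zone, had 273, 335, 296 and 257 TPM and 197, 99.0, 165 and 131 TPM. For Itgb3 WT 2 was the lowest culture, the reverse of its place for Ctsk, Dcstamp and Ckb.

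**Figure D2:**
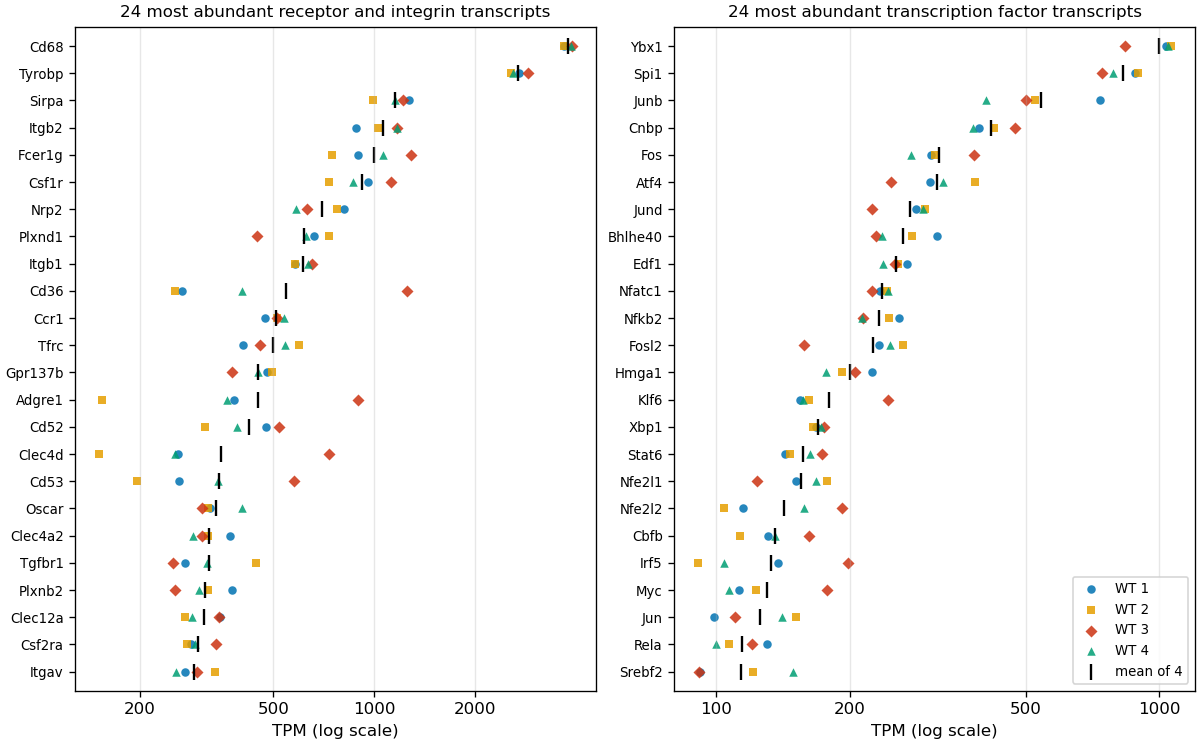
Levels of the 24 most abundant receptor and integrin transcripts (left) and of the 24 most abundant transcription factor transcripts (right) in WT, TPM on a log axis, one symbol per culture and a bar at the mean of the 4. Cd36, Adgre1, Clec4d and Cd53 spread widest on the left, whereas the factors on the right, Nfatc1 at 236 TPM among them, lie closer together.

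Transcription factors covered 282 genes, of which 228 were detected and 26 reached 100 TPM, and they took 1.25% to 1.35% of TPM in a culture. Spi1, which encodes PU.1, the factor that sets up the myeloid lineage, had 882, 895, 745 and 788 TPM. Nfatc1, the master factor of osteoclast formation, had 234, 243, 224 and 244 TPM, and its SD of log2(TPM + 1) was 0.05. Both were thus nearly level over cultures that differed severalfold in other genes. Among AP-1 members, Junb had 734, 524, 502 and 407 TPM, Fos had 306, 313, 382 and 275 TPM, Jund 274 ± 33.4 TPM and Fosl2 226 ± 46.9 TPM. Nfkb2, the precursor of the alternative NF-kB subunit p52, had 233 ± 22.7 TPM. General or stress-linked factors filled the other leading places, with Ybx1 (a nucleic-acid binding protein) at 998 ± 107 TPM, Cnbp at 418 ± 41.8 TPM, Atf4 (a factor of the amino acid response) at 315 ± 56.2 TPM, Bhlhe40 at 264 ± 39.5 TPM and Edf1, a coactivator, at 255 ± 13.4 TPM.

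Irf8, a factor known as a brake on osteoclast formation and named after its values were seen, had 11.6, 6.47, 24.8 and 18.8 TPM, highest in WT 3 and lowest in WT 2. Nuclear receptors stayed below 100 TPM, with 21 of 47 detected and 13 listed at 0. Esrra, an orphan receptor of mitochondrial genes, had 83.2 ± 13.7 TPM, the oxysterol receptors Nr1h2 and Nr1h3 had 76.2 ± 3.57 and 66.1 ± 22.7 TPM, Rxrb 67.8 ± 13.9 TPM and the glucocorticoid receptor Nr3c1 46.3 ± 6.18 TPM. Vdr (the vitamin D receptor) and Esr1 (an oestrogen receptor), named after their values were seen, were under the detection level at 0.409 and 0.425 TPM.

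Markers of other cell types were checked in the same libraries. Of 10 T and NK cell markers 1 was detected and 6, Cd3d, Cd3g and Cd8a among them, were listed at 0 in all 4 WT cultures. Of 6 B cell markers 1 was detected, Cd79b, a chain of the B cell receptor, with 0.853, 0.194, 2.51 and 3.67 TPM, and 3, Ms4a1 and Pax5 among them, were listed at 0. Of 8 red cell markers 1 was detected, the erythropoietin receptor Epor, with 0.252 to 2.34 TPM, highest in WT 4, and 4, Slc4a1 among them, were listed at 0. Of 10 mast cell and basophil markers 0 were detected and 8, such as Cpa3 and Mcpt8, were listed at 0. The neutrophil surface marker Ly6g was listed at 0 as well. Macrophage markers were detected at 11 of 12, and their sum of 6096, 5188, 11224 and 7663 TPM in WT 1 to WT 4 was highest in WT 3. Monocyte markers summed to 79.6, 53.4, 480 and 165 TPM and dendritic cell markers to 358, 220, 1534 and 513 TPM, also highest in WT 3. Flt3, the receptor altered in the FLT3 ITD groups and named after its values were seen, had 0.889, 0.486, 0.172 and 0.108 TPM. Neutrophil markers were detected at 10 of 12, with sums of 33.6, 19.2, 486 and 287 TPM. Cd4, which mouse macrophages and dendritic cells can also express, had 3.95, 2.10, 40.3 and 28.6 TPM without the T cell markers. Stromal markers such as Col1a1, the collagen chain of bone, had sums of 8.16, 16.6, 8.23 and 28.9 TPM and were highest in WT 4. The Y-linked genes Ddx3y and Eif2s3y were detected in all 4 cultures, at 27.4 to 66.7 and 42.4 to 66.9 TPM.

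The 4 cultures differed little for most genes and widely for a small set. Among the 8072 genes with a mean of at least 10 TPM, the median SD of log2(TPM + 1) was 0.16 and the median coefficient of variation 11.1%, and 868 genes differed by more than 2-fold between the highest and the lowest culture. Only 116 had an SD of log2(TPM + 1) above 1. These 116 were picked for their spread over the same cultures. WT 3 was the highest culture for 98 of them and WT 2 the lowest for 95, against 25.5% and 22.8% of all 8072 genes. Between pairs of cultures, 125 genes differed more than 2-fold for WT 1 and WT 4, 135 for WT 1 and WT 2, 226 for WT 2 and WT 4, 261 for WT 3 and WT 4, 420 for WT 1 and WT 3 and 625 for WT 2 and WT 3. On the first principal component, which held 73.8% of the variance, the cultures lay in the order WT 2, WT 1, WT 4 and WT 3.

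Myeloid effector genes led the list of variable transcripts. S100a9, S100a8, Ngp and Chil3, products of neutrophil precursors or activated macrophages, had at most 3.96 TPM in WT 1 and WT 2 and at least 13.9 TPM in WT 3 and WT 4. S100a9 had 1.61, 0, 170 and 101 TPM and Ngp had 0.562, 0, 72.7 and 34.8 TPM. The platelet-type chemokines Pf4 and Ppbp and the neutrophil chemokine Cxcl2 were instead far higher in WT 3 than in any other culture, with WT 4 next. Pf4 had 62.2, 24.4, 717 and 150 TPM and Cxcl2 had 0.996, 0.833, 52.3 and 3.11 TPM. Of 8 megakaryocyte markers 3 were detected, namely Pf4, Ppbp and the clotting factor Vwf, with 7.12 to 9.07 TPM, and 2, Gp9 and Gp1bb, were listed at 0 in all 4. Others of the 15 most variable were the lysozyme Lyz1, a close copy of Lyz2 with which reads may be shared, Fcrls, Cd4, the fractalkine receptor Cx3cr1, Cbr2, the adhesion molecule Vcam1, and the MHC class II chain H2-Aa, which had 24.9, 7.96, 162 and 41.5 TPM. All 14 of these were highest in WT 3. The remaining one, Scd2, a fatty acid desaturase, had 131, 373, 54.5 and 802 TPM, highest in WT 4 and lowest in WT 3.

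**Figure D3:**
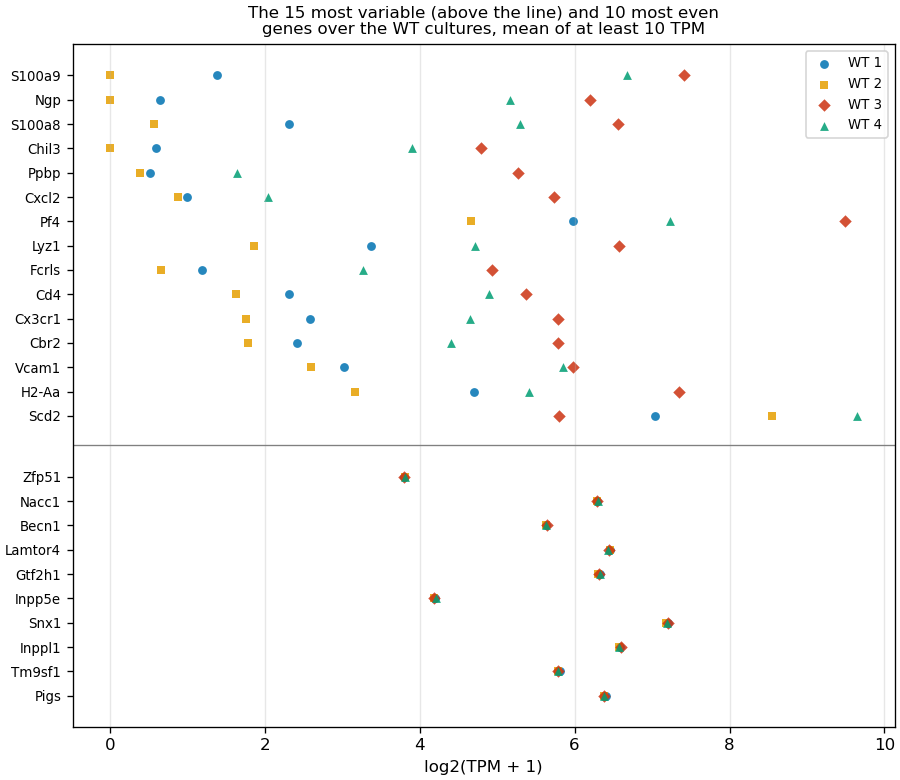
log2(TPM + 1) in each WT culture for the 15 genes with the largest and the 10 genes with the smallest SD among those with a mean of at least 10 TPM. S100a9 spans 0 to 170 TPM, and the even genes below the line, Zfp51 to Pigs, coincide in all 4 cultures.

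Some of the variable genes lay beside each other. Of the 100 most variable, 22 had another of the 100 within 100000 bases, forming 13 neighbour pairs in the mouse annotation of the same build, a count that was not compared with other genes. The 3 subunits of C1q, the recognition protein of complement, lie together on chromosome 4: C1qa had 197, 123, 1390 and 701 TPM, C1qb had 586, 337, 2783 and 1185 TPM and C1qc had 192, 112, 858 and 456 TPM. The class II genes H2-Ab1, H2-Aa and H2-Eb1 on chromosome 17, S100a8 and S100a9 on chromosome 3, Ppbp and Pf4 on chromosome 5 and Mmp8 and Mmp27 on chromosome 9 were further such groups, all highest in WT 3. An exception was the interferon-induced pair Ifit1 and Ifit2 on chromosome 19, highest in WT 1 at 39.0 and 39.0 TPM, against 6.73 to 9.27 and 7.29 to 8.49 TPM in the other cultures. Promoter windows of C1qb and C1qc, printed as above because these genes moved together over the cultures, both hold the M-box letters, and that of C1qc also the PU.1 core. For C1qa no window was found.
C1qb, chr4:136886201-136886450, minus strand: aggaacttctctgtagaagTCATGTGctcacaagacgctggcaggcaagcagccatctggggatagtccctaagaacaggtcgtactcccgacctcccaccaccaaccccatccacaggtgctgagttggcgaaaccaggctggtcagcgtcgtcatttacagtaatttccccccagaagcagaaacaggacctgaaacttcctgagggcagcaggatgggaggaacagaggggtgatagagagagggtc
C1qc, chr4:136892915-136893164, minus strand: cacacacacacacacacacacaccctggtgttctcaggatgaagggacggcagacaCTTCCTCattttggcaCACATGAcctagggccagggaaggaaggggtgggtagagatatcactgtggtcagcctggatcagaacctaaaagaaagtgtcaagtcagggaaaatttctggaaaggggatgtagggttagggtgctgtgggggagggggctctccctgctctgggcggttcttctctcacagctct
Of the 100 most variable genes, 79 had 94 windows, and GAGGAAG was in 30 of them (31.9%), against 13.6% of all windows and 13.7% of the windows of genes detected in WT. In the same order, TATAAA was in 20.2%, against 13.6% and 6.86%, and TCATGTG in 7.45%, against 3.77% and 2.17%. TGANTCA was in 8.51%, against 7.81% and 5.25%, and CACGTGAC in 0, against 2.25% and 4.31%. Mean GC content was 50.9% in these windows and 60.7% in those of detected genes, and the part of base composition was not tested.

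The most even genes included Zfp51 (a zinc finger protein), with 1.01 times the lowest culture in the highest, Nacc1, with 77.1 to 77.6 TPM, Becn1, a core autophagy protein, with 48.4 to 49.1 TPM, and Lamtor4, a subunit of the lysosomal mTORC1 anchor, with 85.4 to 87.0 TPM. Gtf2h1, Inpp5e, Snx1, Inppl1, Tm9sf1 and Pigs completed the 10, each within 1.02-fold between the highest and the lowest culture.

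Summed by function, the cultures departed in different directions. WT 3 combined the highest sums of macrophage markers, C1q, MHC class II and neutrophil markers with the lowest sums of V-ATPase, energy and cell cycle genes and of the resorption list. C1q sums were 975, 571, 5031 and 2342 TPM, MHC class II sums 469, 253, 1932 and 644 TPM. In the opposite direction, and against 48.7% of all 8072 genes, 17 of 19 genes of the amino acid response were lowest in WT 3, such as Asns (asparagine synthetase) with 95.2, 148, 20.1 and 135 TPM, and 33 of 40 cell cycle genes, such as the proliferation marker Mki67 with 128, 111, 65.9 and 114 TPM. All 14 listed glycolysis genes were highest in WT 4, against 11.7% of all 8072 genes, such as Ldha (lactate dehydrogenase) with 907, 903, 948 and 1682 TPM. The same held for 22 of 23 genes of sterol and fatty acid synthesis, such as Insig1 with 90.1, 146, 85.6 and 222 TPM. The lists for C1q, MHC class II, the amino acid response, glycolysis and sterol and fatty acid synthesis were chosen after values were seen. Their sums and counts are thus a description of these cultures only. The part of macrophage or neutrophil RNA, of culture day and of other differences between the cultures in these patterns was not tested.

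**Figure D4:**
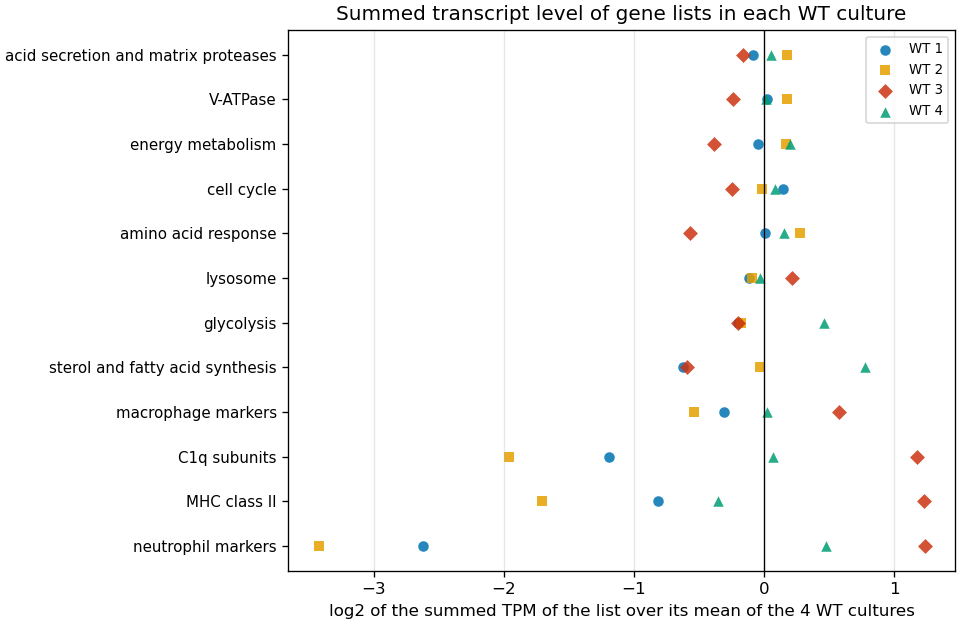
Summed TPM of 12 gene lists in each WT culture, as the log2 ratio to the mean of the 4 cultures, one row per list and one symbol per culture. WT 3 lies farthest right for macrophage markers, C1q, MHC class II and neutrophil markers and farthest left for V-ATPase and energy genes, and WT 4 farthest right for glycolysis and for sterol and fatty acid synthesis.

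Set against most mutant cultures, the WT cultures lay closer to the mean of the others of their genotype, although some pairs of mutant cultures were closer than any WT pair. For each of the 16 cultures the median absolute difference in log2(TPM + 1) from the mean of the other 3 of its genotype was taken over genes with a mean of at least 1 TPM. This distance was 0.13, 0.15, 0.23 and 0.11 in WT 1 to WT 4, against 0.24 to 0.31 in Ptprc KO, 0.27 to 0.46 in FLT3 ITD and 0.22 to 0.36 in FLT3 ITD Ptprc KO. WT 1, WT 2 and WT 4 lay below every mutant culture, and WT 3 overlapped the mutant range. Pair by pair, Ptprc KO replicates 2 and 3 and FLT3 ITD replicates 1 and 3 had a lower chi-square per gene than any WT pair. FLT3 ITD Ptprc KO replicates 1 and 4 lay within the range of the WT pairs. The remaining mutant pairs lay above every WT pair except WT 2 with WT 3. A wide distance in a mutant genotype thus does not mean that all its cultures lay apart. The largest distances, 0.46 and 0.43, were those of FLT3 ITD replicates 2 and 4, the only libraries with a negative correlation with gene length. The part of that trend was not tested. The WT mean was 0.16 ± 0.05 (SD, n = 4) and the mutant mean 0.31 ± 0.08 (SD, n = 12), a difference of -0.15. An exact permutation test, two-sided, gave p = 0.0022. It exchanged the 16 distances, each taken once within its genotype, as if they were independent. They are not, so this p-value does not measure a difference between WT and mutant genotypes.

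The mean over the resorption genes showed the same order, but in it genes that move in opposite directions offset each other. Gene by gene, WT 3 was lowest for 10 and highest for 5 of the 19. Their median SD of log2(TPM + 1) over the WT cultures was 0.23, above the 0.18 of all detected genes. The mean log2(TPM + 1) over the 19 genes of acid secretion and matrix digestion was 8.94, 8.96, 8.91 and 8.97 in WT 1 to WT 4, against 8.71 to 9.40 in Ptprc KO, 8.13 to 9.33 in FLT3 ITD and 7.76 to 8.995 in FLT3 ITD Ptprc KO. The distance of a culture from the other 3 of its genotype was at most 0.05 in WT and at least 0.13 in every mutant culture, with means of 0.03 ± 0.02 (SD, n = 4) and 0.52 ± 0.31 (SD, n = 12). The difference of -0.49 had p = 0.0011 in the exact permutation test, two-sided, which is the smallest value that test can give here. Distances within a genotype share libraries and are not independent: a culture apart from the rest also raises the distances of the others of its genotype. The permutation test treats them as independent, so its p-values are only a description. In FLT3 ITD Ptprc KO, replicates 1, 2 and 4 scored 7.76, 7.84 and 7.76, and replicate 3 scored 8.995. FLT3 ITD replicates 1 to 4 scored 9.33, 9.05, 9.32 and 8.13. Without FLT3 ITD Ptprc KO replicate 3 the resorption difference was -0.34 (p = 0.0073 in the same permutation test). The day of RNA sampling, not given per culture, cannot be told apart from genotype. Without FLT3 ITD replicates 2 and 3 the differences were -0.17 and -0.62. Among the 8072 genes with a mean of at least 10 TPM in WT, an SD of log2(TPM + 1) above 1 was found for 116 in WT, against 269 in Ptprc KO, 626 in FLT3 ITD and 455 in FLT3 ITD Ptprc KO.

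**Figure D5:**
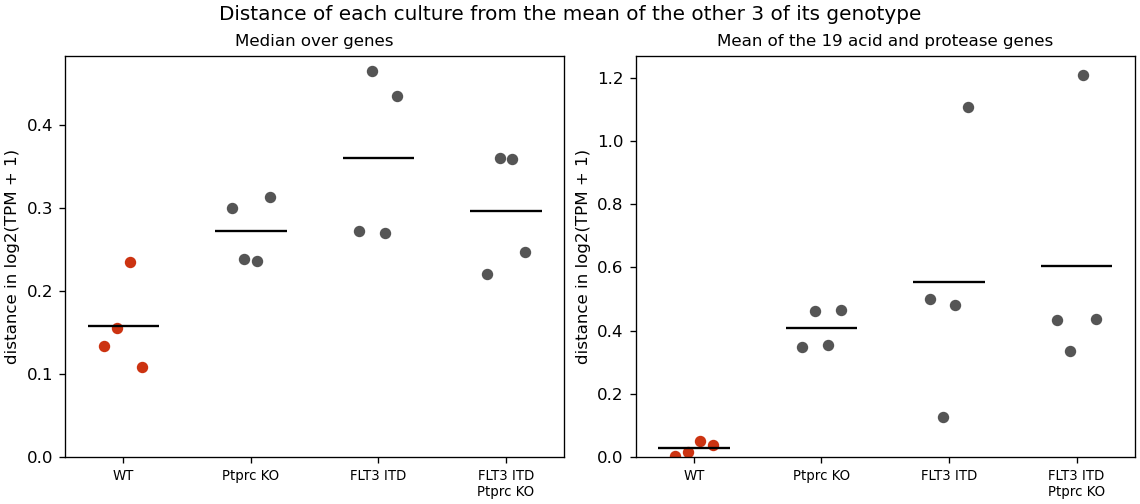
Distance of each culture from the mean of the other 3 of its genotype in log2(TPM + 1), as the median over genes (left) and for the mean of the 19 acid and protease genes (right), with 4 points and a line at their mean per genotype. On the right the 4 WT points lie between 0.0047 and 0.05, below all 12 mutant points.

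Few genes separated WT from the mean of the 3 mutant groups in level. edgeR's quasi-likelihood test on the counts, with Benjamini-Hochberg adjustment over 12093 genes, called 4 genes higher in WT, which is 0.0331% of those tested, and 0 lower. DESeq2 called 29 higher and 9 lower and voom 53 higher and 15 lower. At an edgeR unadjusted p under 0.05 there were 176 higher and 76 lower, and the median log2 fold change over all genes was -0.03. Ptprc itself, deleted in 2 of the 3 mutant groups, had 412 to 472 CPM in WT, against 30.8 to 45.8 CPM in Ptprc KO, 230 to 543 CPM in FLT3 ITD and 54.1 to 86.7 CPM in FLT3 ITD Ptprc KO (log2 fold change 2.18, SE 0.17, adjusted p = 2.59e-05). It separated WT from the groups that carry the deletion and not from FLT3 ITD. With FLT3 ITD replicates 1 and 3 summed and replicate 2 left out, a setting chosen after seeing the data, edgeR called 2 genes.

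Akr1c12, an aldo-keto reductase with close paralogs on chromosome 13 among which reads may be split, had 17.8, 20.1, 12.1 and 12.3 CPM in WT. The mutant cultures had 1.93 to 2.80 CPM in Ptprc KO, 1.75 to 9.74 CPM in FLT3 ITD and 1.83 to 4.17 CPM in FLT3 ITD Ptprc KO, so that WT overlapped none of them. Its log2 fold change was 2.37 (SE 0.32, edgeR adjusted p = 0.0158), and the call was lost without WT replicate 1 (adjusted p = 0.0543) or without Ptprc KO replicate 3 (adjusted p = 0.0505). The other 2 called genes, Vsig4 (a complement receptor of resident macrophages) and Paqr9 (a membrane receptor), lay under 5 CPM and are named after their values were seen. Vsig4 had 57, 32, 131 and 150 counts in WT, against 48 to 98 in Ptprc KO and 0 in all 8 cultures with FLT3 ITD. Paqr9 had 26 to 100 counts in WT, against 31 to 113 in Ptprc KO, 2 to 4 in FLT3 ITD and 1 to 3 in FLT3 ITD Ptprc KO. Vsig4 lost its call in 5 and Paqr9 in 13 of the 16 fits with a library left out. In both, WT and Ptprc KO overlapped, so the contrast with the mutant mean came from the groups with FLT3 ITD.

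Outside the receptors and macrophage markers, no list had a called gene in this test. Of the 19 resorption genes, 0 were called, with a median log2 fold change of 0.04, and the same count held for the V-ATPase genes (0 of 19, median 0.01), the lysosome list (0 of 49, median -0.02) and the transcription factors (0 of 219 lineage factors, median -0.03). The contrast averages the mutant groups, so a median near 0 does not show equal levels. Resorption sums were 49120 to 61969 TPM in WT and 41123 to 90027 TPM in Ptprc KO. They were 27453 to 75761 TPM in FLT3 ITD and 18323 to 67935 TPM in FLT3 ITD Ptprc KO. Of the receptors, Ptprc and Vsig4 were called. MHC class II genes had 0 of 8 called, with 8 of 8 fold changes negative and a median of -1.14, and 0 of 8 had an unadjusted p under 0.05. Stromal markers had 0 of 9 called, 7 of 9 with an unadjusted edgeR p under 0.05 and a median of 2.11. The median of all genes was -0.03. In all 4 WT cultures 9 genes (0.0744% of those tested) lay above all 12 mutant cultures, such as Akr1c12 and Ero1b, an oxidase of the endoplasmic reticulum named after its values were seen, with 25.1 to 32.4 CPM in WT, against 10.2 to 21.6 CPM in the mutants (edgeR adjusted p = 0.0977). Another 6 genes (0.0496%) lay below all 12.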

How the data were processed

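RNA of 16 osteoclast cultures was sequenced from poly(A) libraries of 500 ng RNA made with a directional kit and molecular identifiers, per the labels. The tools listed are featureCounts 2.0.3 for counting, UMI-tools 1.1.1 for identifiers, the aligner STAR 2.7.6a, cutadapt 4.2 for trimming and bcl2fastq 2.20.0.422, with the build GRCm38.p6, per the submitters' processing notes, and the settings for identifiers and strand are not given in the sources used here. The authors deposited whole counts per gene, with a gene length in bases as a further value (unit other), and a separate table of TPM. The TPM table does not follow exactly from the deposited counts: over 1697 WT genes at 100 TPM or more, deposited TPM was 0.956 to 1.05 times the TPM rebuilt from counts and lengths. Low TPM values were whole multiples of 1 read within 0.1 for 100.0% of the genes checked, and implied 1.68 to 1.74 reads for each deposited count in the WT libraries, with 0 genes below their count. The TPM levels thus rest on more reads than the tested counts, and which table follows the collapse of molecular identifiers is not stated in the labels. The design text states more samples than the 16 analysed here, and the labels name a FLT3 inhibitor that no sample analysed here carries.

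WT levels, ranks and spreads were computed from the deposited TPM as means and SD over 4 cultures, on log2(TPM + 1) for spreads. A gene was called detected at a mean of 1 TPM. The counts were tested with edgeR 4.0.16 (R 4.3.3, TMM, quasi-likelihood, Benjamini-Hochberg threshold 0.05), as WT against the mean of the 3 mutant groups, with 12 residual degrees of freedom and a common dispersion of 0.137. limma 3.58.1 and DESeq2 1.42.0 served as alternatives. The distance of a culture from the others of its genotype was taken once per culture. These values were then exchanged between WT and mutant cultures in an exact permutation test (scipy 1.17.1). In simulated data with 12023 genes tested, this edgeR comparison called 56.7% of genes changed 2-fold, 83.6% of those changed 4-fold and 98.5% of those changed 8-fold, and 12 of 171 calls were false. The changed genes were drawn from those with a mean count of at least 50 and differed between WT and all 3 mutant groups alike. These rates do not cover genes with lower counts or changes in only some mutant groups.

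Genes were named by rule: the 30 most abundant, up to 12 of each receptor, integrin and factor list and 8 of each other list by mean TPM, the 15 most and 10 least variable at 10 TPM or more, and called genes at 5 CPM or more. The lists and members were chosen with earlier results of these data known. The 6 lists for C1q, MHC class II, neutrophil granules, the amino acid response, glycolysis and lipid synthesis, the neighbouring genes and the motifs were chosen after values were seen, and nothing is supported by them. Positions come from GENCODE M21, in which 21894 genes were found, and promoter windows from RefSeq, for 27025 genes. Other normalizations, filters, units, thresholds and left-out libraries were tried as alternatives.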

Additional observations from a re-analysis of the deposited data

Results flagged for a closer look

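In each group of 4 cultures, the gap between an extreme culture and its nearest neighbour was divided by the range of the group, and ratios above Dixon's 95% critical value for 4 samples are given here. Of 218 values tested, 12 (5.50%) passed, and chance alone gives about 5% of groups. WT 4 was the highest culture for the glycolysis sum, at 13014 TPM against 8214 to 8376 TPM (ratio 0.958), a list chosen after values were seen. It was also highest for the list members Ldha, at 1682 TPM against 903 to 948 TPM (0.921), and Pkm, at 2306 TPM against 1538 to 1593 TPM (0.914). The WT 4 sum of mast cell and basophil markers, of which 0 of 10 were detected, was 1.29 TPM against 0.913 to 0.968 TPM (0.843). WT 1 was highest for the interferon-induced Ifit2, at 39.0 TPM against 7.29 to 8.49 TPM (0.914), for the calcitonin receptor Calcr, at 81.9 TPM against 65.6 to 67.7 TPM (0.856), and for Pigs, at 83.5 TPM against 81.9 to 82.1 TPM (0.866). WT 2 was highest for Cd9, at 626 TPM against 562 to 566 TPM (0.935). WT 3 was highest for the clotting factor Vwf, at 9.07 TPM against 7.12 to 7.32 TPM (0.884). It was lowest for the factors Ybx1, at 839 TPM against 1037 to 1067 TPM (0.882), and Jund, at 224 TPM against 283 to 295 TPM (0.846). Among the mutants, FLT3 ITD Ptprc KO replicate 3 had a resorption score distance of 1.21 against 0.337 to 0.438 in the other 3 cultures of its genotype (0.885). No explanation of these values was tested.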

How the results depend on the processing

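Of 268 alternative values, 223 were labelled the same, 29 lost a call in the same direction, 16 moved and 0 reversed. For fold changes and distances, the same meant equal direction and side of the 0.05 threshold. For counts of genes it meant within a fixed ratio of the main value, so that 203 detected receptors and integrins at 5 TPM, against 275, counted as the same. For levels, ranks, shares and spread it meant a change no larger than an SD between cultures. Leaving out mitochondrial and ribosomal protein genes and rescaling moved the share of the 10 most abundant genes to 12.7% and of the 100 most abundant to 29.8%, and raised Ctsk to 22668 TPM, Mmp9 to 19107 TPM at rank 3 and Acp5 to 12785 TPM at rank 5, by construction. The median spread between WT cultures was 0.12 to 0.19 with a culture left out, and detected genes numbered 9331 to 11498 over the other settings. The count of genes separating WT from the mutant mean, 4 in edgeR, was 2 with a mean count of at least 50, 0 with the 12 mutant libraries as 1 group (152 at an unadjusted p under 0.05), 2 with FLT3 ITD replicates 1 and 3 summed and 2 left out, 38 in DESeq2 and 68 in voom with quality weights. With 1 library left out it was 1 to 6, namely 1 without WT replicate 1 or Ptprc KO replicate 3 and 2 without WT replicate 4 or Ptprc KO replicate 2. The causes were not tested. limma on log2(TPM + 1) and on log2(TPM + 0.1) called 3 each and moved the median of all genes to 0.11 and 0.12 on the log2 scale. Ptprc lost its call only with the 12 mutant libraries as 1 group (adjusted p = 1.0), as did Akr1c12 (adjusted p = 0.144) beside the losses named above, with adjusted p elsewhere between 1.47e-07 and 0.0451. Paqr9 lost it in 13 and Vsig4 in 5 of 16 fits with a library left out. The distance results kept direction and call, with permutation p up to 0.022 and 0.00733 that likewise treat the distances as independent. With the replicate number as a block, edgeR called 3 genes, among them 2 of the 4. Of 24 correlations between libraries that share a number, 12 exceeded 0.1, over a range of -0.633 to 0.851. In replicate 3 the mutant groups had 0.461 to 0.719 with each other and -0.633 to -0.532 with WT. The labels do not state that the numbers pair libraries, and whether libraries of some groups share a batch or day was not tested. Filters gave no other value for the resorption score, which uses a fixed list, nor thresholds and pseudocounts for shares and levels.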
